A study of Mus musculus with 11 samples.

Results

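A set of 8 genes that encode broad transcription and RNA regulators of mouse embryonic stem cells (ESCs), Pou5f1, Sox2, Sall4, Lin28a, Utf1, Rest, Zfp281 and Trim28, was followed in the expression table and in the peak lists of the CBX6 study. They were chosen by name, as factors present in both naive and primed pluripotent cells, with no threshold on the values given below. The choice was made with earlier results of these data known. The genes are 8 of 23288 gene symbols in the table. All data came from ESCs of the E14Tg2A line grown without feeder cells on gelatin in serum with leukemia inhibitory factor (LIF). Of the 11 samples, 4 were RNA-seq libraries, 2 of ESCs infected with a lentivirus carrying a control shRNA (shCtl) and 2 of ESCs infected with one carrying an shRNA against Cbx6 (shCbx6). Both groups thus went through infection and antibiotic selection, and which of the shRNAs made against Cbx6 was used for RNA-seq is not stated in the labels. The other 7 samples were ChIP-seq, of which 4 peak lists were used: 2 replicates of anti-HA ChIP in ESCs whose own Cbx6 gene had been tagged with 3×HA and which had been grown from sorted single cells, 1 ChIP of CBX7 and 1 of RING1B. The anti-HA ChIP of cells without the tag and both IgG controls were not analysed here. Nothing in the labels says that replicates came from separate cultures, so p-values measure only the spread between these libraries, which may be technical.

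OCT4, the product of Pou5f1, and SOX2 bind DNA together at composite elements and hold the centre of the pluripotency network. SALL4 and ZFP281 are zinc finger proteins that work with the NuRD complex, UTF1 is a chromatin-bound protein of the inner cell mass, LIN28A is an RNA-binding protein that blocks maturation of let-7 microRNAs, REST silences neuronal genes outside neurons, and TRIM28 is the corepressor that KRAB zinc finger proteins bring to retroelements. When ESCs leave the naive state for the formative and primed states, naive factors such as KLF4 and TBX3 are lost while OCT4 and SOX2 persist. CBX6, CBX7 and RING1B are subunits of Polycomb repressive complex 1 (PRC1), which keeps developmental genes silent. The question the knockdown addresses is whether ESC identity depends on CBX6.

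The libraries were alike in most whole-table measures. Genes at 1 FPKM or more (fragments per kilobase of transcript, divided by the library's mapped fragments) numbered 11116 to 11325 per library, and the relative depth read from the lowest values lay between 0.959 and 1.13 of that of shCtl replicate 1. Cbx6 itself was 17.4 and 14.9 FPKM in shCtl, against 9.53 and 5.40 in shCbx6, a mean of 16.1 ± 1.8 against 7.46 ± 2.92 (SD, n = 2). Its difference was -1.06 ± 0.263 (SE) on the log2(FPKM + 1) scale, with an adjusted p of 0.247 in limma. The shCbx6 libraries differed from each other: the summed level of 8 trophectoderm markers, chiefly the keratins Krt8 and Krt18, was 11.4 and 16.6 FPKM in shCtl, 33.7 in shCbx6 replicate 1 and 262 in shCbx6 replicate 2. Krt8 was 12.1 and 119, Krt18 13.2 and 122 and Krt7 0.549 and 9.02 FPKM in shCbx6 replicates 1 and 2. Of the transcription factors on that list, Tfap2c was 2.84 and 2.21 FPKM in shCtl, against 7.41 and 9.04 in shCbx6 (1.39 ± 0.176, adjusted p = 0.0895 in limma), Hand1 reached 1.80 FPKM in shCbx6 replicate 2, and Cdx2, Elf5 and Gata3 were below 1 FPKM in every library. At those low levels Cdx2 (0.0156 and 0.0615 against 0.114 and 0.511), Elf5 (0.0157 and 0.0155 against 0.0329 and 0.0533) and Gata3 (0.0301 and 0.0396 against 0.0944 and 0.489) were higher in both shCbx6 libraries. Summed markers of primitive endoderm were 49.8 and 53.8 FPKM in shCtl, against 39.3 and 98.5 in shCbx6, with Sparc the largest part (20.7 and 26.8 against 17.6 and 61.0). Of the others, Lama1 was lower in both libraries (9.95 and 9.29 against 2.90 and 2.04 FPKM) and Lamb1 (12.1 and 10.8 against 15.4 and 24.0) and Dab2 (0.657 and 0.576 against 0.699 and 1.67) were higher. Col4a1 (4.02 and 4.22 against 1.39 and 5.52) and Col4a2 (1.61 and 1.30 against 0.564 and 3.41) went opposite ways in the shCbx6 libraries, and the defining factors Gata6, Gata4, Sox17, Foxa2 and Pdgfra were below 1 FPKM in every library. Those of neuroectoderm summed to 10.2, 8.10, 11.9 and 7.52 FPKM, a total that joins opposite differences: Pax6 (1.47 and 0.569 against 5.51 and 1.82) and Nes (0.673 and 0.720 against 1.59 and 3.27) were higher in both shCbx6 libraries, and Sox1 and Ncam1 were lower (ratios of 0.232 and 0.427). Those of mesoderm summed to 2.06 to 4.13 FPKM over the 4 libraries, chiefly from Eomes (2.12 and 1.42 against 1.63 and 1.92), while T (0.0984 and 0.0324 against 0.446 and 0.771) and Wnt3 (0.0104 and 0.0307 against 0.141 and 0.497) were higher in both shCbx6 libraries at levels under 1 FPKM. Also under 1 FPKM, Mixl1, Mesp1 and Fgf8 were higher in both. Gsc was lower in both (0.156 and 0.0615 against 0.0326 and 0), and Evx1 overlapped (0.373 and 0.201 against 0.615 and 0.18). The fibroblast list summed to 209 and 173 FPKM in shCtl, against 164 and 139 in shCbx6, almost all of it from Fn1 (154 and 128 against 128 and 92.2) and Vim (53.3 and 43.9 against 34.9 and 42.0), with Col1a1, Col1a2, Col3a1, Dcn, Lum and Postn below 1 FPKM everywhere. Of these, Col1a1 (0.0336 and 0.0398 against 0.0984 and 0.549), Col1a2 (0.00611 and 0.0181 against 0.0576 and 0.163) and Dcn (listed at 0 in both shCtl libraries against 0.0397 and 0.0843) were higher in both shCbx6 libraries, and Thy1 was 1.68 and 1.64 FPKM against 1.16 and 3.82. The 8 genes described here summed to 2457 and 2626 FPKM in shCtl, against 2284 and 2473 in shCbx6, chiefly from Pou5f1 and Trim28. The lowest value of any of the 8 in the 4 libraries was 27.4 FPKM, for Zfp281. In bulk RNA, fewer cells of a type and less RNA per cell cannot be told apart, and the part of the other cell types in the differences below was not tested.

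OCT4 and SOX2 meet at a composite element, TTGTNATGC, which joins a SOX site to an OCT4 site. That 9-base string was searched on both strands within 5 kb of each start site in the mm9 genome, and was found in 5 of the 8 windows against 21.1% of the windows of all 21921 genes with coordinates. It was chosen for these factors after the data were in hand, and a match is a description of the letters and not of binding. The elements are shown because they are the sequence through which OCT4 and SOX2 are known to act, and because some fall inside and others outside the CBX6 peaks described further on. Each is printed with 25 bases on either side, 59 bases in all, on the strand where it reads TTGTNATGC, with the element in capitals. None overlaps an annotated exon. Known regulatory regions of this kind are the distal enhancer upstream of Pou5f1, a region downstream of Sox2 and the enhancer downstream of Utf1. Matches at these genes could be foreseen when the string was chosen, so 5 of 8 against 21.1% is no test of enrichment.
Pou5f1, chr17:35640973-35641031, minus strand: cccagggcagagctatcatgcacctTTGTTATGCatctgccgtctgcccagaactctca
Sox2, chr3:34552948-34553006, plus strand: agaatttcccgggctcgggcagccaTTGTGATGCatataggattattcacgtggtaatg
Lin28a, chr4:133578252-133578310, plus strand: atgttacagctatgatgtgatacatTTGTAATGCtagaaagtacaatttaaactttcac
Utf1, chr7:147131559-147131617, minus strand: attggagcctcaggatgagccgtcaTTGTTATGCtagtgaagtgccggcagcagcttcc
Rest, chr5:77691342-77691400, minus strand: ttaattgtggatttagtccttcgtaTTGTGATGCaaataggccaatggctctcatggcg
The Pou5f1 element lay 1.98 kb upstream of the start site and that of Utf1 1.90 kb downstream of it, past the end of the gene. The Sox2 element lay 4.05 kb downstream, the Lin28a element 3.52 kb upstream and the Rest element 3.14 kb upstream. No TTGTNATGC stood within 5 kb of the start sites of Sall4, Zfp281 and Trim28.

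The 8 genes spanned a 50.2-fold range of expression in shCtl, and all were well above the level of most genes. The order by mean FPKM, a per-length level, was Pou5f1, Trim28, Utf1, Sox2, Lin28a, Rest, Sall4 and Zfp281. Ranges over the 4 libraries overlapped between the neighbours Utf1 and Sox2 and between Rest and Sall4. All other neighbours stood apart. Within each library Utf1 was above Sox2, by little in shCtl replicate 1 (135.9 against 132.9 FPKM). Rest was above Sall4 in both shCtl libraries and below it in both shCbx6 libraries, so that pair cannot be ordered. Pou5f1 ranked 92 among the 11172 genes at 1 FPKM or more in shCtl, and Zfp281, the lowest, still ranked 3095.

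**Figure D1:**
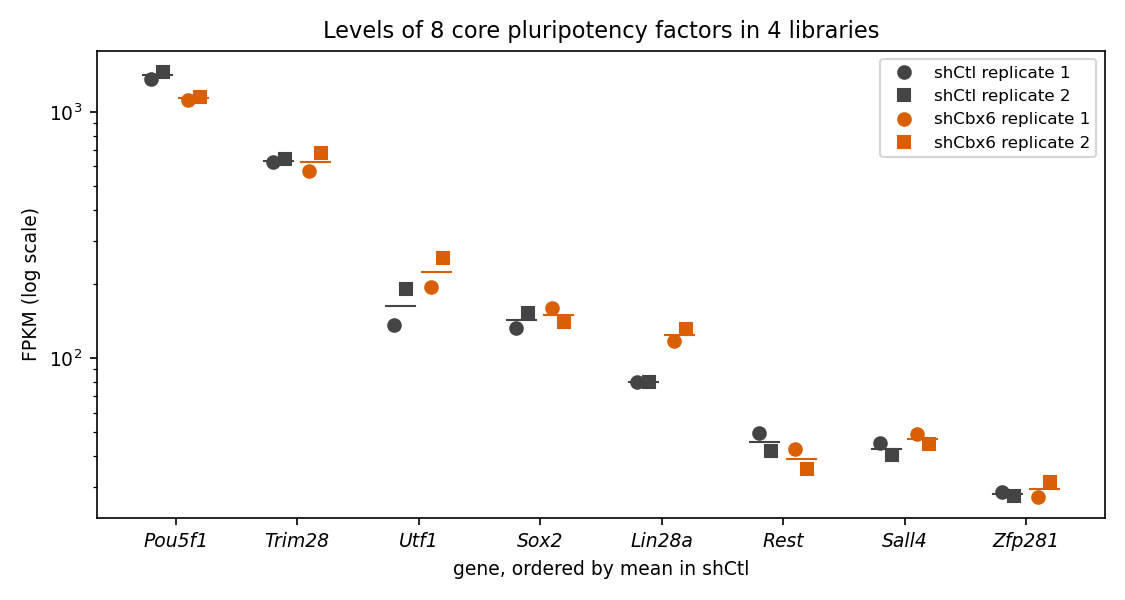
FPKM of each of the 8 genes in the 4 RNA-seq libraries, on a log10 axis, with 1 point per library and a short line at each group's mean (n = 2). Pou5f1 lies near 1405 FPKM in shCtl and Zfp281 near 28.0, Lin28a is the gene whose shCbx6 points stand clearest above its shCtl points, and Pou5f1 is the only gene with both shCbx6 points below both shCtl points.

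Pou5f1 (ENSMUSG00000024406, chr17:35642982-35647721, plus strand, mm9) gave the highest level. It was 1359 and 1452 FPKM in shCtl, against 1120 and 1151 in shCbx6. Both shCbx6 libraries were below both shCtl libraries, a mean of 1136 ± 21.9 against 1405 ± 66.0 (SD, n = 2) or 19.2% less. The difference on the log2(FPKM + 1) scale was -0.31 ± 0.185 (SE), with a 95% interval from -0.77 to 0.16, and it did not pass limma (adjusted p = 0.604). Processed pseudogenes of Pou5f1 exist in the mouse genome, and reads that map to more than 1 place were discarded by the authors, so its level is uncertain to that extent.

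Sox2 (ENSMUSG00000074637, chr3:34548927-34551383, plus strand), the partner of OCT4, was 132.9 and 151.8 FPKM in shCtl, against 159.9 and 140.5 in shCbx6. The groups overlapped, with means of 142.3 ± 13.4 and 150.2 ± 13.8. The log2 difference was 0.08 ± 0.163, with a 95% interval of 0.792 to 1.40 in fold. Sox2 lies inside the longer noncoding gene Sox2ot on the same strand, so reads of one can be counted for the other.

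The zinc finger factors overlapped between groups. Sall4 (ENSMUSG00000027547, chr2:168573832-168593443, minus strand) was 45.0 and 40.2 FPKM in shCtl, against 49.1 and 44.7 in shCbx6. The values interleaved, and the log2 difference was 0.13 ± 0.145 with a fold interval of 0.852 to 1.41. Zfp281 (ENSMUSG00000041483, chr1:138521478-138526630, plus strand) was 28.5 and 27.5 FPKM in shCtl, against 27.4 and 31.3 in shCbx6, where shCbx6 held both the lowest and the highest value. Its log2 difference was 0.06 ± 0.141, with a fold interval of 0.816 to 1.34.

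Lin28a (ENSMUSG00000050966, chr4:133559245-133574756, minus strand) showed the largest difference of the 8. It was 80.2 and 80.3 FPKM in shCtl, against 117.1 and 131.7 in shCbx6. The shCtl libraries were nearly equal and both shCbx6 libraries stood above them, a mean of 124 ± 10.3 against 80.2 ± 0.0827 (SD, n = 2), or 55.1% more. That ratio, 1.55, passed the 1.5-fold threshold that the authors used to call changed genes. The log2 difference was 0.62 ± 0.146, with a 95% interval from 0.25 to 0.99 that leaves out 0, but after adjustment over all 11592 genes tested limma without a replicate term did not call it (unadjusted p = 0.00701, adjusted p = 0.235). With the replicate number as a block, limma did call Lin28a (adjusted p = 0.0489), though the labels do not say that a number marks a shared batch. Without shCbx6 replicate 2, the library with the high keratins, the ratio was 1.46 and no longer past 1.5.

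Utf1 (ENSMUSG00000047751, chr7:147129688-147131011, plus strand) was 135.9 and 190.7 FPKM in shCtl, against 194.5 and 254.5 in shCbx6. Both shCbx6 values were above both shCtl values, but the lower of them by little, and the libraries of a group differed by 1.40-fold in shCtl and 1.31-fold in shCbx6. The log2 difference was 0.46 ± 0.239, with a 95% interval from -0.14 to 1.07 (adjusted p = 0.538 in limma). The ratio of means was 1.37, and it ran from 1.18 to 1.65 as each library was left out in turn, past 1.5 without shCtl replicate 2 (1.65) or shCbx6 replicate 1 (1.56).

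The repressors Rest and Trim28 overlapped between groups. Rest (ENSMUSG00000029249, chr5:77694516-77715457, plus strand) was 49.5 and 41.8 FPKM in shCtl, against 42.7 and 35.5 in shCbx6. Its log2 difference was -0.22 ± 0.169, with a fold interval of 0.638 to 1.16, and in each group replicate 1 was the higher, by 1.19-fold in shCtl. Trim28 (ENSMUSG00000005566, chr7:13609501-13616384, plus strand) was 626.3 and 642.2 FPKM in shCtl, against 572.6 and 683.5 in shCbx6. The shCtl values lay between the shCbx6 values, and the log2 difference was -0.02 ± 0.184 with a fold interval of 0.715 to 1.36.

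Counted together, 0 of the 8 genes passed limma without a replicate term at an adjusted p of 0.05, against 0.0949% of all genes tested. With the replicate number as a block 1 passed, Lin28a, against 388 of the 11592 genes tested. Without the block 1 of the 8, Lin28a, was under an unadjusted p of 0.05, against 11.7% of all genes in either direction and 5.12% upward. That count was 2 under quantile normalization, with Pou5f1 added. The 1.5-fold threshold was passed upward by 1, against 7.63% of all genes, and downward by 0, against 6.56% (14.2% in either direction). Groups did not overlap for 3 of the 8, Lin28a and Utf1 higher and Pou5f1 lower, against 43.2% of all genes, 18.9% upward and 24.4% downward. Among the 3095 genes at or above the level of Zfp281 in shCtl, 7.14% were under an unadjusted p of 0.05, 5.3% were past 1.5-fold and 35.6% had groups that did not overlap. The median log2 difference of the 8 was 0.07, and that of all genes tested was -0.012. With 2 libraries a group, an exact permutation test of a single gene could not give a two-sided p below 0.333.

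A difference that misses a threshold does not show that a gene was held at its level, so the intervals were read as well. The 95% interval of the fold lay wholly within 1.5-fold in either direction for Sox2, Sall4, Zfp281 and Trim28, 4 of the 8. The same held for 42.4% of all genes tested and for 49.2% of the 3095 genes at or above the level of Zfp281 in shCtl. For Pou5f1 the interval reached 0.585-fold and for Rest 0.638-fold on the low side, and for Utf1 it reached 2.10-fold and for Lin28a 1.99-fold on the high side. By the spread between these libraries alone, the fit bounds the change of 4 of the genes to less than 1.5-fold, a share near that of other genes. Changes of that size remain possible for the other 4. The number bounded in this way was 0 without either shCtl library and 1 without either shCbx6 library.

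**Figure D2:**
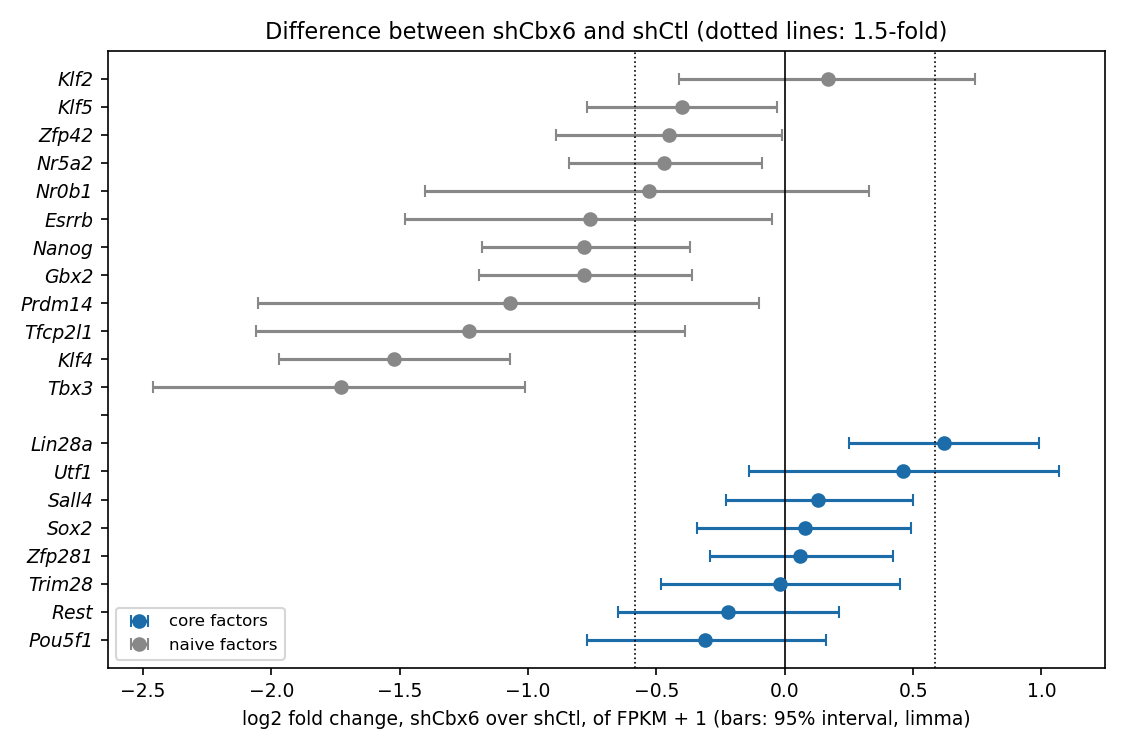
Difference of shCbx6 minus shCtl on the log2(FPKM + 1) scale for each of the 8 genes (blue) and, for comparison, 12 naive factors (grey), with 95% intervals from limma (bars, 2 libraries a group), a solid line at 0 and dotted lines at 1.5-fold in either direction. The intervals of Sox2, Sall4, Zfp281 and Trim28 lie between the dotted lines, and among the 8 the interval of Lin28a, 0.25 to 0.99, is the only one that leaves out 0, while the naive factors lie mostly to the left.

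For each gene, the gene with the most similar profile was the one at the smallest Euclidean distance in log2(FPKM + 1) over the 4 libraries, a measure that rewards a like level as much as a like difference. Rest was nearest to Spry4 (distance 0.109), an inhibitor of receptor tyrosine kinase signalling, at 47.8 and 42.4 FPKM in shCtl, against 40.8 and 33.7 in shCbx6. Lin28a was nearest to Txnrd1 (0.244), thioredoxin reductase, at 87.1 and 91.2 FPKM in shCtl, against 116.4 and 142.4 in shCbx6. That Txnrd1 was also higher in both shCbx6 libraries follows from choosing it by these values. Utf1 was nearest to Fkbp1a (0.138), an immunophilin, at 141.4, 181.8, 184.3 and 242.1 FPKM. The others were Atp5b for Pou5f1 (0.377, the loosest match), Gltscr2 for Sox2 (0.146), Stk11 for Sall4 (0.113), Clint1 for Zfp281 (0.0559) and Hspd1 for Trim28 (0.207).

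The genes around the 8 were counted in lists of the states they span and of their partners and targets. In limma without a replicate term, 0 genes of these lists passed an adjusted p of 0.05, a call that changes for some of them under other fits given at the end. At an unadjusted p under 0.05 stood 10 naive factors lower, 6 formative genes higher and 1 lower, 2 OCT4 and SOX2 targets lower, 1 NuRD subunit lower, 2 genes of the LIN28A list higher, 2 REST corepressors higher and 2 lower, 3 REST targets lower, 3 relatives lower and no TRIM28 partner or 2-cell gene. Of 12 naive factors, 7 were past 1.5-fold lower and none higher, 11 were lower in both shCbx6 libraries than in both shCtl libraries, and the median log2 difference was -0.77, against 0.07 for the 8. Klf4, a naive factor downstream of LIF, was 91.1 and 96.7 FPKM in shCtl, against 36.7 and 28.0 in shCbx6, a log2 difference of -1.52 ± 0.177 (adjusted p = 0.0842). Tbx3 was 34.3 and 34.0 FPKM against 13.1 and 6.90, and Tfcp2l1 was 64.8 and 55.6 FPKM against 35.5 and 17.7. Of 11 formative and primed genes, 7 were past 1.5-fold higher and 1 lower, with a median of 0.77. Otx2, the factor that directs OCT4 to new enhancers on exit from the naive state, was 3.42 and 4.65 FPKM in shCtl, against 15.3 and 30.4 in shCbx6 (2.18 ± 0.335, adjusted p = 0.117). Pou3f1, another POU factor of primed cells, was 0.925 and 0.977 FPKM against 4.55 and 10.4, and the DNA methyltransferase gene Dnmt3b was 31.8 and 31.8 FPKM against 90.9 and 192. The difference of the 8 from either list was not tested, and the 8 and both lists were chosen with earlier results of these data known. Without shCbx6 replicate 2, 5 naive factors were past 1.5-fold lower (median -0.49), 7 formative genes higher (median 1.04) and 0 of the 8 in either direction (median 0.07). In shCbx6 the keratin-rich replicate 2 was the lower of the libraries for Klf4, Tbx3 and Tfcp2l1 and the higher for Otx2, Pou3f1 and Dnmt3b, and its part in these values was not tested.

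**Figure D3:**
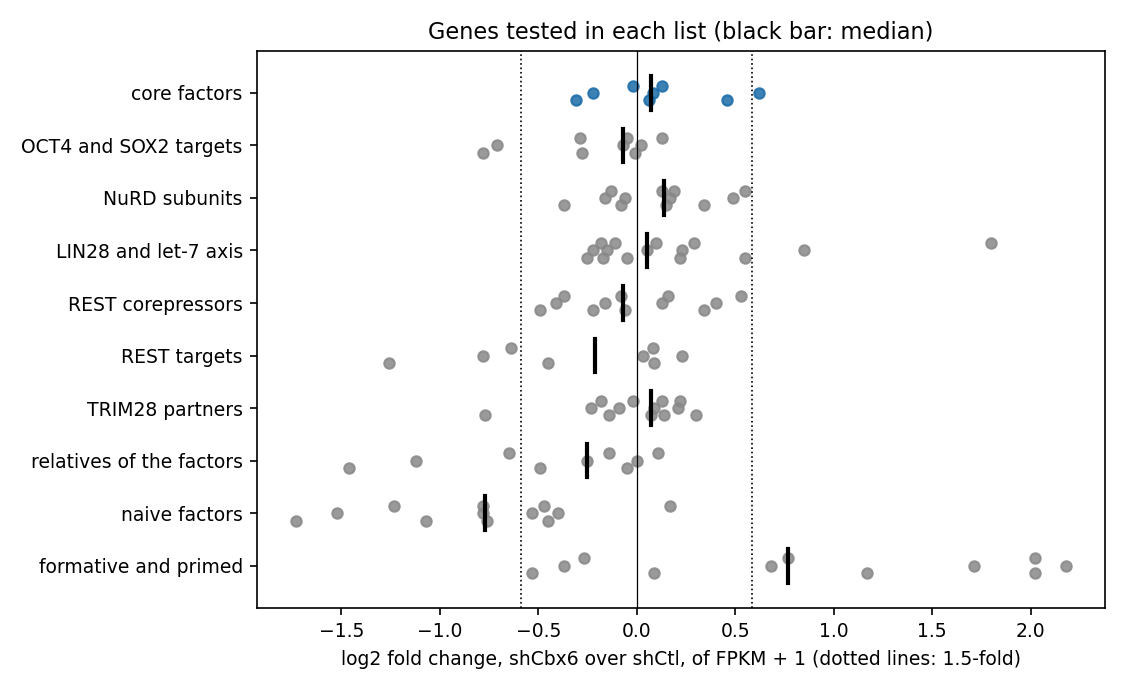
Log2(FPKM + 1) difference of shCbx6 minus shCtl for each tested gene of the 8 (blue) and of the lists of partners, targets, relatives and states (grey), 1 point a gene, with a black bar at each list's median and dotted lines at 1.5-fold. Naive factors lie mostly below 0 (median -0.77), formative genes mostly above it (median 0.77), and the 8 core factors around it (median 0.07).

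Genes with an enhancer bound by OCT4 and SOX2 did not move as one group. Of 9 such genes, 2 were past 1.5-fold lower and none higher, and the median was -0.07. Those lower in both shCbx6 libraries were Nanog (321 and 359 FPKM against 204 and 192), Tdgf1, a Nodal co-receptor (517 and 534 against 372 and 277), and Spp1, or osteopontin (143 and 184 against 139 and 128), with log2 differences of -0.78 ± 0.160, -0.71 ± 0.205 and -0.28 ± 0.184 and adjusted p of 0.188, 0.300 and 0.622. For Fgf4, Fbxo15, Zscan10 and Dppa4 the groups overlapped. Nanog stands on the naive list too. Without shCbx6 replicate 2, 1 of the 9 was past 1.5-fold in each direction and the median was 0.11.

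Among 12 subunits of NuRD, the deacetylase and remodelling complex bound by SALL4 and ZFP281, 1 was past 1.5-fold higher and none lower, and the median was 0.14. The largest non-overlapping differences were those of Rbbp7, a histone-binding subunit (139 and 166 FPKM in shCtl, 172 and 288 in shCbx6, 0.55 ± 0.281, adjusted p = 0.535), Mta1 (24.4 and 31.7 against 34.5 and 44.7, 0.49 ± 0.204, adjusted p = 0.452) and the deacetylase gene Hdac2 (127 and 132 against 103 and 96.7, -0.37 ± 0.142, adjusted p = 0.411). None of these passed the test, and without shCbx6 replicate 2 the median was -0.05 with 0 past 1.5-fold.

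Around LIN28A, 15 genes of let-7 processing and let-7 targets were tested. Past 1.5-fold higher were 2 of them, and none was past it lower, with a median of 0.05. These were Mycn, a MYC family gene (20.0 and 18.2 FPKM in shCtl, 54.3 and 87.0 in shCbx6, 1.80 ± 0.246, adjusted p = 0.103), and Hmga2, a chromatin protein gene (3.32 and 5.32 against 6.67 and 10.5, 0.85 ± 0.280, adjusted p = 0.348), both let-7 targets. Hmga1, also a target, was 18.5 and 36.6 FPKM against 39.4 and 37.8 (0.55 ± 0.318, adjusted p = 0.587), a difference that was 0.07 without shCtl replicate 1 and 1.02 without shCtl replicate 2. Others on the list did not go the same way. Igf2bp3 was lower in both shCbx6 libraries (31.2 and 36.9 against 26.9 and 29.9 FPKM), Igf2bp2 and Arid3b overlapped, and Igf2bp1 and Trim71 were higher in both. The paralog Lin28b was far below Lin28a, at 7.87 and 6.49 FPKM in shCtl, against 9.07 and 8.07 in shCbx6. The uridylyltransferases Zcchc11 and Zcchc6, which LIN28A recruits, had values of 11.7 and 14.8 against 9.81 and 14.1 FPKM, and of 6.39 and 6.19 against 4.99 and 5.55 FPKM. Mature let-7 is not measured by these libraries.

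Of 12 corepressors that REST recruits, none was past 1.5-fold higher and 1 lower, with a median of -0.07. The lower one was Rcor3, at 2.26 and 2.34 FPKM in shCtl, against 1.23 and 1.48 in shCbx6 (-0.49 ± 0.170, adjusted p = 0.373). Sin3b was 54.1 and 60.6 FPKM against 74.4 and 92.2 (0.53 ± 0.170, adjusted p = 0.347), and the H3K9 methyltransferase gene Ehmt1 was 18.3 and 19.5 FPKM against 23.6 and 27.1 (0.40 ± 0.142, adjusted p = 0.386). Of 21 neuronal genes that REST represses, 8 reached 1 FPKM and could be tested, of which 3 were past 1.5-fold lower and none higher. Those 3 were Stmn3, a microtubule regulator gene (13.9 and 13.9 against 9.87 and 2.56 FPKM), Grin1, an NMDA receptor subunit gene (1.82 and 2.64 against 0.918 and 0.802), and Chga, chromogranin A (2.79 and 3.23 against 1.53 and 1.61). Their log2 differences were -1.26 ± 0.511, -0.78 ± 0.206 and -0.64 ± 0.164, with adjusted p of 0.435, 0.259 and 0.255. Without shCbx6 replicate 2 the Stmn3 difference was -0.45, and 2 REST targets were past 1.5-fold lower.

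TRIM28 partners were 13 tested genes, with 1 past 1.5-fold lower, none higher and a median of 0.07 (0 and -0.02 without shCbx6 replicate 2). The lower one was Zfp57, the KRAB zinc finger gene that guards imprints, at 273 and 193 FPKM in shCtl, against 176 and 103 in shCbx6 (-0.77 ± 0.316, adjusted p = 0.439). Cbx1, which encodes an HP1 protein, was 130 and 124 FPKM against 139 and 156 (0.21 ± 0.151, adjusted p = 0.659), and Uhrf1, which guides maintenance methylation, was 169 and 157 FPKM against 139 and 139 (-0.23 ± 0.146, adjusted p = 0.616). Genes of the 2-cell-like state, which loss of TRIM28 raises, were low: 4 of 10 could be tested, all Zscan4 copies, and their groups overlapped. Of these 4, 3 were past 1.5-fold higher with both shCbx6 libraries and 4 past it lower without shCbx6 replicate 2. They belong to a multigene family whose reads cannot be divided with certainty, and each was highest in shCbx6 replicate 2, up to 3.17 FPKM for Zscan4f.

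Close relatives of the 8 were counted in the same way. Of 9 tested, 4 were past 1.5-fold lower and none higher, with a median log2 difference of -0.25, and 2 were past it without shCbx6 replicate 2. Pou2f3, a POU factor, was 3.58 and 4.88 FPKM in shCtl, against 0.831 and 0.948 in shCbx6 (-1.46 ± 0.194, adjusted p = 0.100). Sox1, a neural relative of Sox2, was 2.14 and 2.40 FPKM against 0.767 and 0.287 (-1.12 ± 0.227, adjusted p = 0.187), and Sall3 was 5.56 and 3.47 FPKM against 3.37 and 1.74 (-0.65 ± 0.304, adjusted p = 0.495). Sall1, at 59.1 and 43.6 against 53.3 and 33.9 FPKM, was near Sall4 in level, and Trim24 and Trim33 overlapped between groups. How often relatives passed the threshold against the 8 was not tested.

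In the peak lists all 8 genes had a peak in CBX6 replicate 1 and none had one in CBX6 replicate 2, CBX7 or RING1B. The region searched ran from 2.5 kb upstream of the gene to its transcription end, the rule by which the authors assigned target genes, and the counts were the same within 2.5 kb of the start site. In CBX6 replicate 1, 56.9% of all 21921 genes had such a peak, as did 79.5% of the genes at 1 FPKM or more in shCtl and 82.6% of the 3043 genes at or above the level of Zfp281 in shCtl, so a peak there was the usual state of a gene of this level. In CBX6 replicate 2, CBX7 and RING1B, the shares were 16.6%, 17.9% and 16.1% of all genes and 12.0%, 11.5% and 9.54% of those at 1 FPKM or more, but 4.73%, 2.27% and 2.40% at this level, so having none was usual as well. For start-site peaks the shares of all genes were 51.7%, 14.5%, 15.8% and 14.4% in the order CBX6 replicate 1, CBX6 replicate 2, CBX7 and RING1B, those of genes at 1 FPKM or more 74.7%, 10.2%, 9.87% and 8.52%, and those at the level of Zfp281 or above 79.8%, 3.94%, 1.64% and 2.07%. The 0 of 8 in the last 3 lists is therefore near what genes of like expression show, and the replicates of the CBX6 ChIP differed for every one of the 8.

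**Figure D4:**
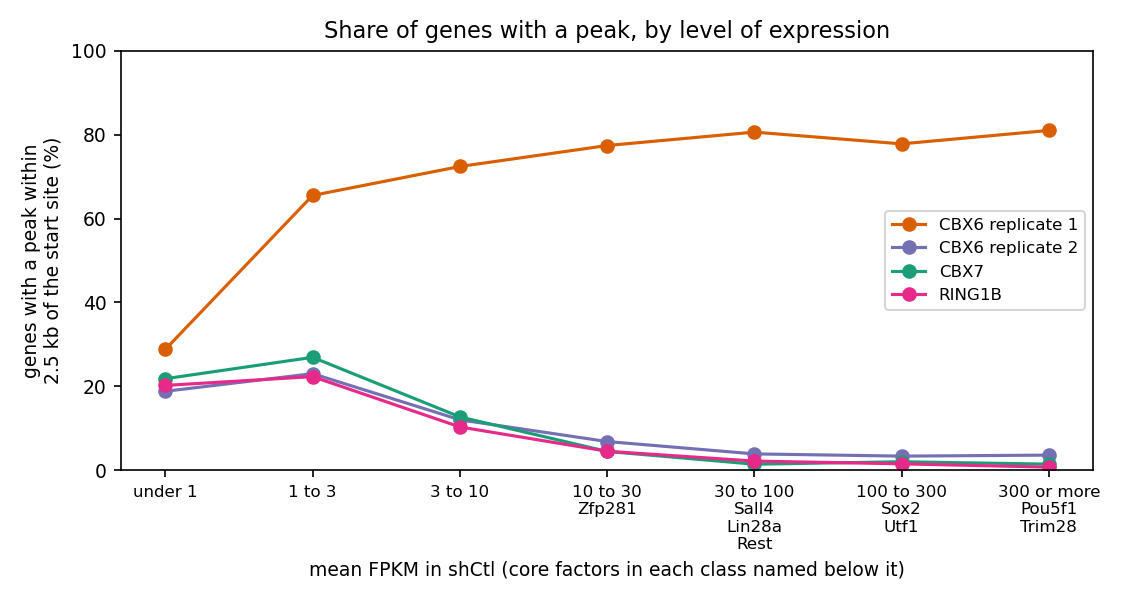
Percent of genes with a peak within 2.5 kb of the start site, by FPKM class in shCtl (mean of 2 libraries) for each of the 4 peak lists, with the classes that hold the 8 genes named. The share in CBX6 replicate 1 is 28.8% under 1 FPKM and 80.6%, 77.8% and 81.0% in the 3 highest classes, and in the other lists it goes from 23.0%, 26.9% and 22.3% at 1 to 3 FPKM down to 3.58%, 1.43% and 0.717% in the highest class.

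The lists themselves were of unequal size. CBX6 replicate 1 held 21865 peaks with a median MACS score of 95.3, CBX6 replicate 2 held 5103 with a median of 156, CBX7 5081 with a median of 300 and RING1B 4180 with a median of 402. Scores start at 50 in every list and are not on 1 scale between lists. Read depth behind a list is unknown here, so the lack of a peak means only that none was called.

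The CBX6 replicate 1 peaks over the 8 start sites ranged from wide and high to narrow and low, and are given here with mm9 coordinates. At Pou5f1 the peak at chr17:35639551-35643965 was 4415 bp wide with a score of 472.9, wider than 98.0% and higher than 98.4% of the 8879 replicate 1 peaks over a start site. It ran from -3431 to 983 bp relative to the start site, and so held the composite element printed above. At Sox2 the peak at chr3:34547256-34550751 was 3496 bp wide with a score of 340.0, wider than 95.2% of those peaks, and it covered the start site and most of the gene, but ended before the element 4.05 kb downstream. Both genes of the OCT4 and SOX2 pair thus had peaks in the top part of that list.

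At Sall4 the peak at chr2:168590337-168592959 (2623 bp, score 207.4) lay over the start of the protein-coding transcript at position 168592701. Lin28a had a peak at chr4:133572662-133574997 (2336 bp, score 243.0), and a further one in its body with nearly the same score, 241.8. At Utf1 the peak at chr7:147129370-147132501 (3132 bp, score 163.9) covered the whole gene and the element past its end. The peak of Rest at chr5:77693144-77696343 (3200 bp, score 162.0) began at -1372 bp from the start site and thus did not reach the element 3.14 kb upstream. Trim28 had one at chr7:13609409-13611433 (2025 bp, score 157.9), which started 92 bp before the start site. The smallest was that of Zfp281 at chr1:138521107-138522354 (1248 bp, score 109.7), wider than 25.1% and higher than 40.2% of start-site peaks. Of the 5 composite elements, those of Pou5f1 and Utf1 lay inside a replicate 1 peak and those of Sox2, Lin28a and Rest did not.

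Replicate 1 peaks covered between 13.7% and 81.3% of the regions searched. The highest share was at Pou5f1, with 3 peaks, followed by Sox2 with 1 peak over 70.5%. Sall4, a longer gene, had 5 peaks over 40.5% of its region, and Rest had 1 peak over 13.7%. Noncoding genes on the opposite strand start close to 3 of the genes, Gm14261 at 1058 bp from Sall4, Gm13061 at 694 bp from Lin28a and Gm17718 at 251 bp from Zfp281, and their replicate 1 peaks overlap both genes of each pair. Whether strand was used in counting reads is not stated, so reads of such pairs may not be told apart.

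**Figure D5:**
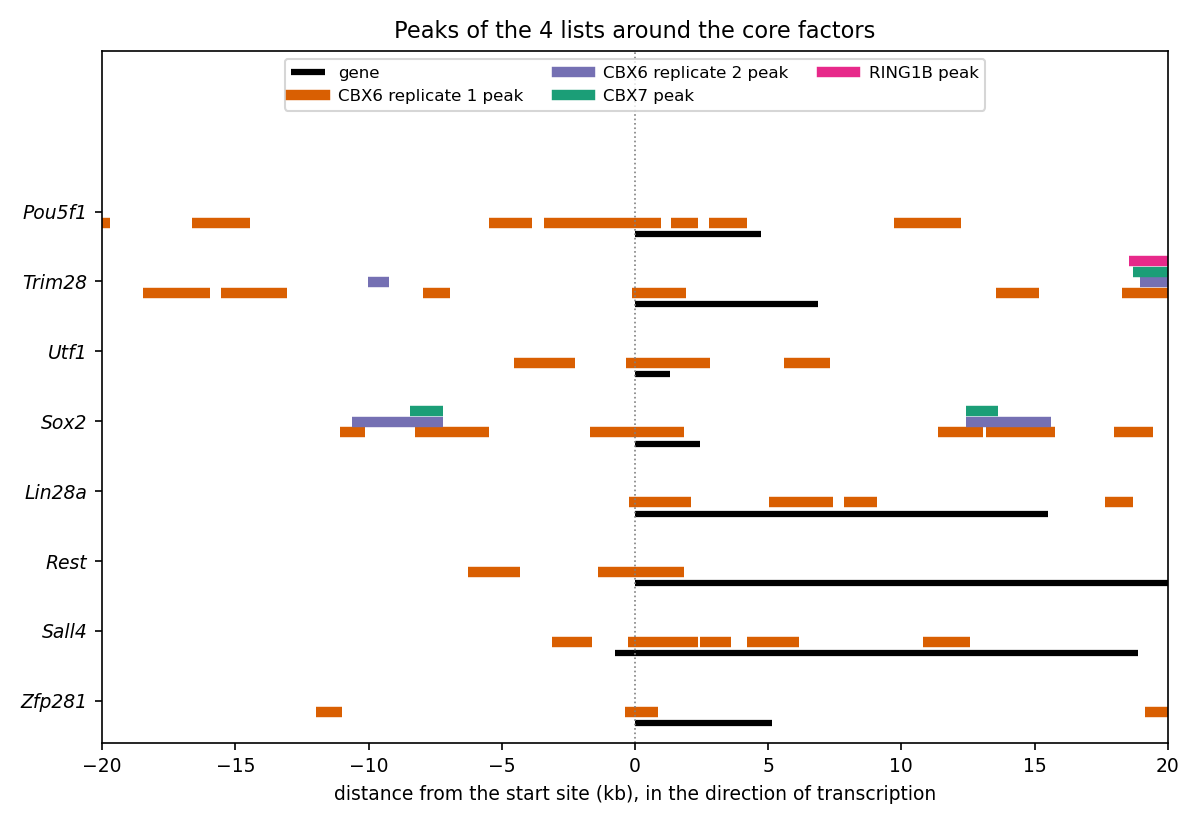
Peaks of the 4 lists within 20 kb of the start site of each of the 8 genes, drawn by distance from the start site in kb with the direction of transcription to the right. Every gene has a CBX6 replicate 1 peak over its start site, 36 replicate 1 peaks in all, while the 4 peaks of CBX6 replicate 2, the 3 of CBX7 and the 1 of RING1B lie away from the start sites of Sox2 and Trim28.

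Within 20 kb of a start site, CBX6 replicate 2 and CBX7 had peaks near Sox2 and Trim28 alone of the 8, and RING1B near Trim28 alone. The share of all genes with a peak within 20 kb was not computed, so how usual such peaks are is not known. Upstream of Sox2, inside Sox2ot, a CBX6 replicate 2 peak at chr3:34538315-34541716 (score 204.3) ended 7.21 kb before the start site, and a CBX7 peak at chr3:34540478-34541731 (score 109.8) ended 7.20 kb before it. Downstream of Sox2, replicate 2 and CBX7 also had peaks that began 12434 and 12422 bp after the start site (scores 243.3 and 61.9). The nearest RING1B peak was 690 kb from Sox2, the farthest of the 8. Sox2 was thus flanked on both sides by places called for both CBX6 replicates and CBX7, with none over the gene in replicate 2 or CBX7. Near Trim28 a replicate 2 peak just above the lowest score (51.78) lay 9.25 kb upstream, and CBX7 and RING1B peaks lay 18.7 and 18.5 kb downstream at Mzf1 (scores 264.4 and 295.1). Both CBX6 replicates had a peak there too, from 18956 to 20822 bp in replicate 2 (score 159.5) and from 18288 to 21022 bp in replicate 1 (score 221.6).

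For the remaining genes the nearest peaks in these 3 lists were at these distances. From Pou5f1 the nearest replicate 2, CBX7 and RING1B peaks were 34.9, 34.6 and 34.8 kb upstream, all at the start of H2-Q10, a class I histocompatibility gene, with scores of 264.1, 697.0 and 1184. From Utf1 all 3 were 103 kb downstream at the homeobox gene Msx3, where CBX7 and RING1B scored 3100. From Lin28a they were about 231, 231 and 230 kb upstream at Grrp1. From Rest they were 142 kb away at Igfbp7 in replicate 2 and RING1B and 169 kb away at Hopx in CBX7. From Sall4 they were 72.5, 78.1 and 144 kb away, and from Zfp281 157, 363 and 164 kb.

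Peaks of CBX6 replicate 2, CBX7 and RING1B, absent at the 8, were common in some of the comparison lists and rare in others. Of 11 formative genes, 9 had a CBX6 replicate 2 peak, 10 a CBX7 peak and 9 a RING1B peak. Otx2 and Pou3f1 had all 3, and Dnmt3b had the first 2 but no RING1B peak. Of 12 naive factors, 5 had a replicate 2 peak (Esrrb, Tbx3, Prdm14, Nr5a2 and Gbx2), 4 a CBX7 peak and 4 a RING1B peak. Of the 15 genes of the LIN28A list, 4 had a replicate 2 peak, and these included Lin28b, Hmga2 and Mycn. Of 10 relatives with coordinates, Sox21 and Sall3 had peaks in all 4 lists, and of 9 genes with an OCT4 and SOX2 enhancer 1, Fbxo15, had a CBX7 peak and none a replicate 2 or RING1B peak. In the order CBX6 replicate 2, CBX7 and RING1B, peaks were at 1, 0 and 1 of 12 NuRD subunits, at 2, 0 and 2 of 12 REST corepressors, at 6, 6 and 5 of 21 REST targets, at 2, 1 and 1 of 13 TRIM28 partners and at 0 of 7 genes of the 2-cell state with coordinates in every list. Many formative genes were also low in shCtl, the class of expression where such peaks were most common.

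The promoters of the 8, the 250 bases before each start site, differed in base composition. Among the promoters of all 21921 genes the median was 54.8% G and C and 9 CpG. Rest stood out with 79.2% G and C and 44 CpG, more CpG than 99.3% of promoters, while Lin28a had 6 CpG and Pou5f1 7. Sox2 had 25 CpG, Zfp281 19, Trim28 17, Utf1 11 and Sall4 9. The SP1-type box GGGCGG, read on both strands, was in the promoters of 6 of the 8 against 41.2% of all promoters, with 7 copies at Rest, 4 at Zfp281, 3 at Utf1, 2 each at Sox2 and Trim28 and 1 at Pou5f1. The octamer ATGCAAAT was in none of the 8, against 1.56% of all promoters, which says only that these letters are not in these windows.

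The promoters with the widest and the narrowest CBX6 replicate 1 start-site peak, those of Pou5f1 and Zfp281, are printed from the mm9 genome with GGGCGG, or its reverse complement, in capitals. They are shown because the peak at each covers at least the whole of the stretch printed.
Pou5f1 promoter, chr17:35642732-35642981, plus strand: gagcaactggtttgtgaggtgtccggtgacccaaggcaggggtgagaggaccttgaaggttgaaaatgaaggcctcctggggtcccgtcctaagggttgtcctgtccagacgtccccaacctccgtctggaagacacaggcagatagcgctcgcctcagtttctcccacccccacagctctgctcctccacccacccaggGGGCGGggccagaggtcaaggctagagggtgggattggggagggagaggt
Zfp281 promoter, chr1:138521228-138521477, plus strand: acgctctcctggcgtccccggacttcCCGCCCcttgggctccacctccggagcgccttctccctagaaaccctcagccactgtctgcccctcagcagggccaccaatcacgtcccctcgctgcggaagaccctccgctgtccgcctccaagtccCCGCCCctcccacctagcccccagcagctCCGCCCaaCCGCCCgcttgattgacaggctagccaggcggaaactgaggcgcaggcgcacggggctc
The Pou5f1 promoter under the widest peak has 1 box near its end and 7 CpG, a number below which 42.0% of promoters lie, and the Zfp281 promoter under the narrowest one has 4 boxes and 19 CpG, above 75.6% of promoters. Peak width across the 8 was not ordered by CpG number, with Pou5f1 (7 CpG, 4415 bp) wider than Rest (44 CpG, 3200 bp).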

How the data were processed

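RNA-seq libraries of shCtl and shCbx6 ESCs and 4 ChIP-seq peak lists were used. Per the labels and the study's methods, the authors aligned paired-end RNA-seq reads to mm9 with TopHat, discarding reads that map to several places, and estimated FPKM per RefSeq transcript with Cufflinks, and the deposited table holds 1 FPKM value per gene symbol and library. The score in the deposited peak lists is the authors' MACS score, called per ChIP-seq sample from uniquely mapped Bowtie reads with a shift size of 75 bp, on mm9, and its control sample is not given in the sources used here. FPKM are relative to each library's fragments, so a few abundant transcripts lower all others and total RNA per cell cannot be seen. Because counts were not used, depth enters only as the spread between libraries.

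Where a group's mean reached 1 FPKM, the gene was tested with limma (version 3.58.1, R 4.3.3; lmFit, eBayes with a trend) on log2(FPKM + 1), with Benjamini-Hochberg adjustment over all 11592 genes. A fold change on this scale understates the change of low genes. The step was tested on simulated data. Ratios of mean FPKM were read at 1.5-fold. Coordinates came from GENCODE M1 on mm9, with 21149 of the symbols found under their own name and 772 under a synonym. Peaks were compared with Python 3.11.15 (pandas 2.3.3, numpy 2.4.6) at an overlap of at least 1 bp, sequences were read with pysam 0.24.0, and figures were drawn with matplotlib 3.10.9.

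The 8 genes, the other 15 lists and the tests were chosen with earlier results of these data known. Named are the 8 genes, Cbx6, the 3 genes of each list with the largest non-overlapping difference, each gene's nearest profile, noncoding neighbours within 5 kb and the nearest peaks. Gene lists are described by counts, with no set test. Other list members named for context (such as Tfap2c, Hand1, Cdx2, Elf5, Gata3, Ncam1, Sparc, Col4a1, Col4a2, Eomes, T, Wnt3, Mixl1, Mesp1, Fgf8, Gsc, Evx1, Col1a1, Col1a2, Dcn, Thy1, Lin28b, Zcchc11, Zcchc6, Trim71, Igf2bp1, Igf2bp2, Igf2bp3, Arid3b, Fgf4, Fbxo15, Zscan10, Dppa4, Sall1, Trim24, Trim33 and Zscan4f) and the composite element were chosen after their values were seen. Alternatives covered the filter, pseudocount, scaling, replicate block, each library left out, peak score, overlap and window.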

Additional observations from a re-analysis of the deposited data

How the results depend on the processing

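Peak counts at the 8 genes did not change with a score of at least 100, with the peak centre inside the region, with 5 kb upstream or with 1 kb around the start site. The direction of Pou5f1, Sall4, Lin28a, Utf1 and Rest held in all 9 alternatives of the limma fit, with log2 differences of -0.46 to -0.26, 0.06 to 0.21, 0.54 to 0.71, 0.22 to 0.71 and -0.35 to -0.09. Sox2 turned to -0.02 without shCtl replicate 1 and to -0.02 without shCbx6 replicate 1, Zfp281 to -0.03 without shCbx6 replicate 2 and Trim28 to 0.11 without shCbx6 replicate 1, all values near 0, and leaving out each library moved the 3 between -0.02 and 0.17, -0.03 and 0.16, and -0.15 and 0.11. With the replicate number as a block, limma called 1 of the 8, Lin28a (adjusted p = 0.0489, over a range of 0.0489 to 0.814 in its alternatives), and it also called Cbx6, Klf4, Tbx3, Tfcp2l1, Nanog, Otx2, Pou3f1, Dnmt3b, Mycn, Hmga2, Zfp57, Pou2f3 and Lama1 (adjusted p from 0.0149 to 0.0459), none of which passed in the same fit with all 4 libraries and no block, while with both same-numbered pairs required past 1.5-fold 0 were higher. The labels do not say that a number marks a shared batch, and deviations of replicate 1 from the group means correlated at 0.266 across 11592 genes. The count of the 8 under an unadjusted limma p of 0.05 was 2 with quantile normalization (Lin28a and Pou5f1), with the block (Lin28a and Utf1) and without shCtl replicate 2. Genes past 1.5-fold higher numbered 0 to 2 as each library was left out, and intervals inside 1.5-fold 0 to 1. The Lin28a level in shCtl was 79.7 FPKM under median scaling. Calls over all genes were 11 as reported, 17 with a pseudocount of 0.1, 26 without the filter, 388 with the replicate block, 22 and 19 without shCtl replicates 1 and 2, 398 without shCbx6 replicate 1 and 35 without shCbx6 replicate 2. Of the genes for which this was computed, Cbx6, Klf4, Tbx3, Tfcp2l1, Otx2, Pou3f1, Dnmt3b, Mycn, Pou2f3, Sox1, Stmn3, Nes, Lama1, Krt7, Krt8 and Krt18 were under 0.05 without shCbx6 replicate 1 (adjusted p from 0.00305 to 0.0419). In that fit shCbx6 is 1 library, assumed to vary as the shCtl libraries do, so these values and the 398 calls rest on the spread of shCtl alone, and the other fits that leave out a library rest likewise on the group that keeps 2. The cause of these changes was not tested. Median scaling and quantile normalization, tried on the lists after the data were seen, turned the direction of no list. Leaving out shCbx6 replicate 2 did turn some list medians. These were primitive endoderm (0.25 to -0.65), neuroectoderm (-0.22 to 0.07), the 2-cell state (0.26 to -0.47) and mesoderm (0.01 to -0.06). The others were OCT4 and SOX2 targets (-0.07 to 0.11), NuRD subunits (0.14 to -0.05) and TRIM28 partners (0.07 to -0.02).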
